A study of Mus musculus with 4 samples.

Results

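The intracellular protease inhibitors of mouse epidermis were followed in 2 families: the clade B serpins, named Serpinb, and the stefins, named Stfa, Csta and Cstb. A gene was a member if the array's annotation table gave its probe set that single symbol, and the probe set of highest mean stood for each gene. This gave 30 of the 19938 named genes, 24 clade B serpins and 6 stefins, each with 1 probe set. A further 5 probe sets of the families carry several symbols and were left out: 3 shared by Serpinb9g, Serpinb9d, Serpinb9e and Serpinb9f, 1 shared by Stfa2l1 and Stfa2, and 1 shared by Cstdc6, Cstdc5 and Stfa1.

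The samples were laser-captured epidermis of the hairless hindpaw skin of 2 transgenic lines. One line overexpresses noggin, an extracellular antagonist of bone morphogenetic proteins (BMPs), and the other overexpresses the ligand BMP4, both from the K14 promoter, which is active in basal keratinocytes. Each of the 4 arrays held RNA pooled from 3 animals, with 8 to 10 captured strips per animal, so each line is represented by 2 pools made from 6 animals. No array of non-transgenic skin was used here, and the strain, age and sex are not given in the sources used here. Every difference below is noggin minus BMP4 on the log2 scale.

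Serpins are protease inhibitors that offer a protease an exposed loop as bait and trap the enzyme once it cuts. Clade B members lack a classical secretion signal and act largely inside cells, where several of them guard the cell against its own granule or lysosomal proteases. Stefins are small inhibitors that block papain-like cysteine proteases, the cathepsins above all, and stefin A is also built into the cornified envelope of keratinocytes. The families matter in hairless skin: in people, loss of SERPINB7 causes a palmoplantar keratosis, and loss of SERPINB8 or CSTA causes peeling skin. Mice carry several stefin A copies side by side where people have 1.

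Upstream sequence of 4 stefin copies is shown because these genes are near copies of each other and were all higher on the noggin arrays. The sequences are from RefSeq (GRCm38.p6), which holds a window for 27 of the 30 members and none for Serpinb13, Serpinb1a and Cstb. Each is the 250 bases before the annotated start, read 5′ to 3′ on the gene's strand, and capitals mark runs of at least 12 bases found in all 4 stefins.
Stfa3, chr16:36455393-36455642, minus strand: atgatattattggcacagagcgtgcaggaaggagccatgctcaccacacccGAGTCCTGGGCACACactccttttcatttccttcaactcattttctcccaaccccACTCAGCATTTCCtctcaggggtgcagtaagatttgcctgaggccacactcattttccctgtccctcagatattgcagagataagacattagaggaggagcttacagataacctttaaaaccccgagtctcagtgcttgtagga
Stfa2, chr16:36408364-36408613, minus strand: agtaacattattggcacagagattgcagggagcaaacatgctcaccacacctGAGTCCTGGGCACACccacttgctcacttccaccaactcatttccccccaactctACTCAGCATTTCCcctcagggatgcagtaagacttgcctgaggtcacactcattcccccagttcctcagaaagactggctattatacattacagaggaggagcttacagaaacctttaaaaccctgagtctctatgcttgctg
Csta3, chr16:36210153-36210402, plus strand: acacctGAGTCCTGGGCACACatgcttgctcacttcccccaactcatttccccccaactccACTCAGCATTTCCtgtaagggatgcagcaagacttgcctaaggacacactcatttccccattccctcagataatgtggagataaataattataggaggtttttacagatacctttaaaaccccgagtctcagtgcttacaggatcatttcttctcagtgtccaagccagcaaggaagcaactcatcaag
Csta1, chr16:36131190-36131439, minus strand: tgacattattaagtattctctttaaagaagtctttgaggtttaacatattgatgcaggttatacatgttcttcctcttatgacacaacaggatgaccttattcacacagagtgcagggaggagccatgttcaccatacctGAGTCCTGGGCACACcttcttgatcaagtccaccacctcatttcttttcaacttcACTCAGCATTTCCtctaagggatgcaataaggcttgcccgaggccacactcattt
The 4 sequences share 2 runs, GAGTCCTGGGCACAC and ACTCAGCATTTCC. Of all 32851 promoter windows of 300 bases in the table, on either strand, 5 hold the first run and 10 hold the second. Csta2 also has a window, which is not shown and holds neither run. Stfa3 and Stfa2 were 84.8% identical over 237 aligned bases, Stfa3 and Csta3 84.7% over 203, and Stfa3 and Csta1 82.9% over 158. A TATA-like TTTAAAA, searched on both strands, starts 31 bases before the annotated start in Stfa3, 29 in Stfa2 and 77 in Csta3, and the Csta1 window ends before the matching stretch. This motif lies in 8.1% of all windows cut to the same 250 bases.

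On both noggin arrays all 6 stefins read higher than on either BMP4 array. Among all named genes 15.7% had their groups apart in that direction, and 47.8% had the higher mean in the noggin line. The median difference over the 6 stefins was 0.53, against -0.0064 over all named genes. No stefin passed the threshold in limma, where p adjusted over all probe sets lay between 0.652 and 0.981. An adjusted p below 0.05 was reached by 0% of the 35556 probe sets, and the smallest was 0.451. At an unadjusted p below 0.05 there were 3 of the 6 stefins, Csta3, Stfa3 and Stfa2, where 2.18% of named genes lay in this direction. The replicates are pools of different animals, and with 2 pools against 2 the exact two-sided permutation test of a single gene has a smallest p of 0.333.

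Stfa3, a stefin A copy, read 12.11 and 12.20 on the noggin arrays and 10.60 and 11.40 on the BMP4 arrays. The noggin pools were close together, and BMP4 replicate 1 was the lowest array. The difference was 1.16 (95% interval 0.34 to 1.97, limma adjusted p = 0.808), or 2.23-fold, with SDs of 0.060 in noggin and 0.57 in BMP4 (n = 2 each). Without BMP4 replicate 1 it was 0.75.

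Stfa2, the stefin A copy next to Stfa3 among the members, read 7.04 and 6.91 in noggin and 5.53 and 6.35 in BMP4. Again both BMP4 pools lay below both noggin pools and BMP4 replicate 1 was lowest. The difference was 1.03 (95% interval 0.19 to 1.86, limma adjusted p = 0.849), or 2.04-fold, and 0.62 without BMP4 replicate 1.

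Csta3, another copy of the same cluster, read 5.62 and 5.83 in noggin and 4.85 and 4.89 in BMP4. The pools of each line were close and the lines did not overlap. The difference was 0.86 (95% interval 0.55 to 1.17, limma adjusted p = 0.652), or 1.81-fold, and it lay between 0.75 and 0.97 when any 1 array was left out. The BMP4 values lie just above the lower quartile of those arrays, 4.72 and 4.71, and detection above background is unknown, so the size of this fold is uncertain.

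The other stefins differed by less. Csta1, the copy that goes by the plain name stefin A, read 11.62 and 11.71 in noggin and 11.42 and 11.51 in BMP4, a difference of 0.20 (95% interval -0.059 to 0.46, limma adjusted p = 0.916). Cstb, or stefin B, a widely expressed inhibitor of cathepsins that lies on another chromosome, read 11.73 and 11.70 in noggin and 11.51 and 11.60 in BMP4, a difference of 0.16 (95% interval -0.087 to 0.40, limma adjusted p = 0.939). Both intervals include 0. Csta2 read 3.93 and 3.81 against 3.80 and 3.79, below the lower quartile on all 4 arrays, where an order of values has little meaning. Leaving Csta2 aside, the stefins above the quartile on all arrays number 5. The copies on chromosome 16 are close enough that probes of one may bind another, and probe sequences were not used here, so the chromosome 16 stefins are not 5 separate counts.

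**Figure D1:**
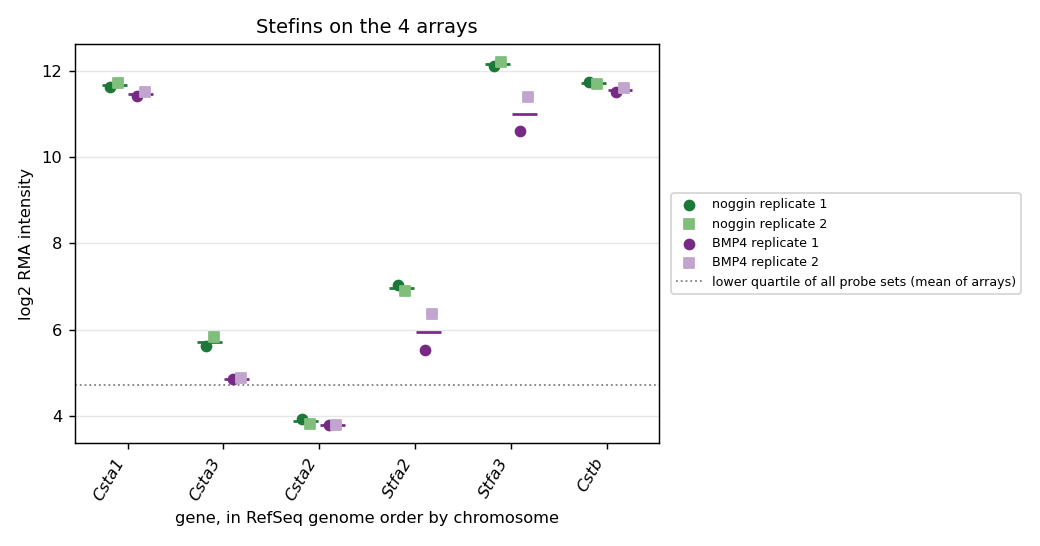
Log2 RMA intensity (y axis) of the 6 stefins (x axis) on each array, with circles for replicate 1, squares for replicate 2, horizontal bars for group means of 2 arrays and a dotted line for the lower quartile of all probe sets averaged over the arrays. Heights of different genes are not comparable, since probes differ in binding; within each gene the noggin points lie above the BMP4 points, by 1.16 on average for Stfa3, 1.03 for Stfa2 and 0.86 for Csta3.

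Stefin A copies are also expressed by neutrophils, so markers of that cell type were read on the same arrays. Of 12 neutrophil markers, 6 were higher and 6 lower on average in the noggin line (median difference 0.013), and the summed intensity was 811 to 955 in noggin and 811 to 878 in BMP4. Ly6g, Ltf and Mmp8 lay below the lower quartile on all 4 arrays and Csf3r on 3, and the other 8 markers did not. Among those 8, the chemokine receptor Cxcr2 read 8.71 and 9.15 in noggin and 8.89 and 8.70 in BMP4, and Cd177 read 6.29 and 5.98 against 6.23 and 6.25. The lines overlapped for both, and Cxcr2, the brightest of the 12, weighs most in the summed intensity. The lines were apart with noggin lower in Camp (-0.19) and Mmp9 (-0.14), and with noggin higher in Retnlg (0.12). Of 10 granular layer markers, 8 averaged higher in noggin (median difference 0.14), while Ivl (-0.034) and Asprv1 (-0.0036) did not. The lines were apart in 6, each time with noggin higher, where the share of named genes is 15.7%. The cornified envelope gene Rptn was 0.71 higher (limma adjusted p = 0.874), or 0.39 without noggin replicate 2. Markers of Langerhans cells and macrophages averaged higher in noggin in 10 of 11 genes (median difference 0.68, or 0.30 without BMP4 replicate 1). Their summed intensity was 3593 to 3963 in noggin against 1733 to 3140 in BMP4. The exception, H2-Eb1, had the smallest limma p of that list. It read 6.37 and 6.43 in noggin and 7.31 and 7.38 in BMP4, a difference of -0.95 (limma adjusted p = 0.601). Genes listed as sebaceous gland markers averaged higher in 6 of 7 (median difference 0.56, or 0.29 without BMP4 replicate 1), with a summed intensity of 3879 to 4328 against 2774 to 3335. Whether the strips of this hairless skin held sebaceous glands was not tested, so the name is that of the list only. The part of what the granular, Langerhans cell and sebaceous lists measure in the stefin difference was not tested. In captured tissue of this kind, fewer cells of a type and less RNA per cell cannot be told apart.

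**Figure D2:**
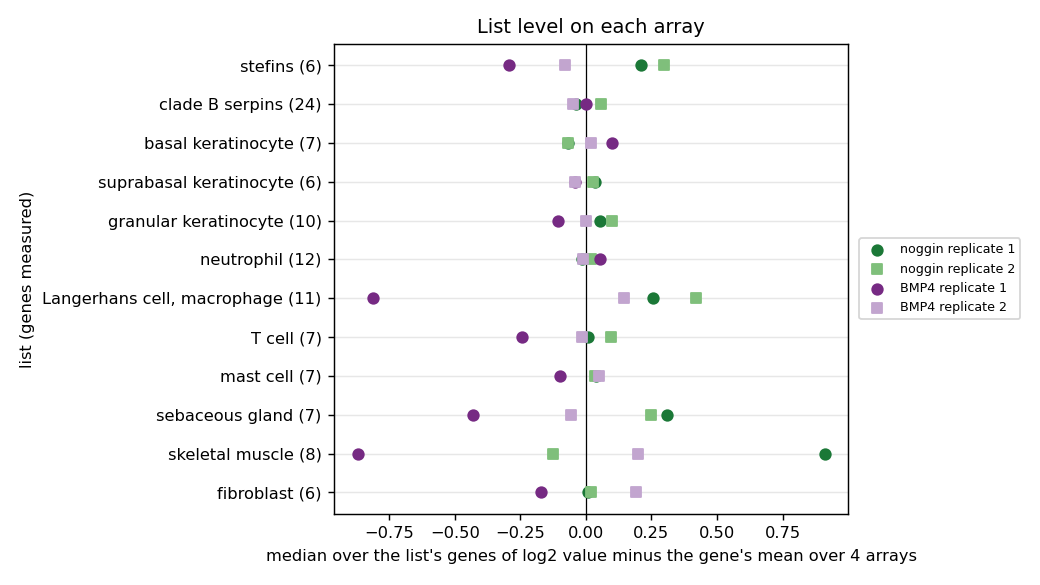
Median over each list's genes of the log2 value minus that gene's mean over the 4 arrays (x axis), for the stefins, the clade B serpins and the marker lists (y axis, number of genes measured in brackets), with 1 point per array. Stefins lie at 0.21 and 0.30 on the noggin arrays and at -0.30 and -0.080 on the BMP4 arrays, while the serpin and neutrophil points lie close to 0 on all 4. The pattern is not particular to the stefins: the sebaceous gland list lies at 0.31 and 0.25 in noggin and at -0.43 and -0.058 in BMP4. Points of the Langerhans cell and skeletal muscle lists spread wider, from -0.81 to 0.42 and from -0.87 to 0.91, with BMP4 replicate 1 lowest in both.

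The clade B serpins as a family had no common direction. Of 24 genes, 13 averaged higher and 11 lower in the noggin line, where 52.2% of named genes averaged lower, and the median difference was 0.017. The lines were apart with noggin higher in 4 serpins, Serpinb3c, Serpinb1a, Serpinb9d and Serpinb9e, and with noggin lower in 2, Serpinb13 and Serpinb11. Among all named genes 17.9% had their groups apart with noggin lower. Over the 30 members the groups were apart in 12, where the share over named genes is 33.6%. None of the 24 passed in limma, the lowest adjusted p being 0.732. Before adjustment, 1 serpin in each direction had p below 0.05, Serpinb3c and Serpinb13, where 2.18% of named genes were higher and 2.1% lower.

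Both serpins with a difference of at least 0.5 in size, Serpinb3c and Serpinb13, were in the list grouped as acting across protease classes, on cathepsins. They went in opposite directions. The list has 4 measured genes, and whether Serpinb3c itself blocks a cathepsin was not tested. Serpinb3a, Serpinb3c and Serpinb3d are mouse copies of the squamous cell carcinoma antigen genes. Serpinb3c read 7.72 and 7.97 on the noggin arrays and 6.09 and 6.72 on the BMP4 arrays. The lines did not overlap, and the difference was 1.44 (95% interval 0.75 to 2.14, limma adjusted p = 0.732), or 2.72-fold. It lay between 1.13 and 1.76 when any 1 array was left out. Serpinb3a read 6.30 and 7.32 in noggin and 7.39 and 6.36 in BMP4. Here the spread within each line was larger than the difference between lines, which was -0.066 (95% interval -1.48 to 1.35). Serpinb3d read 7.75 and 8.16 in noggin and 8.22 and 7.08 in BMP4, a difference of 0.31 (95% interval -0.88 to 1.497). Serpinb3a and Serpinb3d were thus both highest on BMP4 replicate 1 and next highest on noggin replicate 2, an order that does not follow the lines, while Serpinb3c was lowest on BMP4 replicate 1.

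Serpinb3c and Serpinb3a are shown next because they differ in their values while their upstream sequences are close to identical. Capitals mark runs of at least 12 bases found in both (RefSeq, GRCm38.p6, 250 bases before the start).
Serpinb3c, chr1:107278372-107278621, minus strand: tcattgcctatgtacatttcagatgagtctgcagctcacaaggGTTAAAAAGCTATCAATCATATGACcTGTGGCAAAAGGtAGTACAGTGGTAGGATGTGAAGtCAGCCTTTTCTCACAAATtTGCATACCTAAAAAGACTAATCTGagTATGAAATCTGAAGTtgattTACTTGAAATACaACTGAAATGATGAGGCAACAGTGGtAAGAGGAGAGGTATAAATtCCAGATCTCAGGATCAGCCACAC
Serpinb3a, chr1:107052304-107052553, minus strand: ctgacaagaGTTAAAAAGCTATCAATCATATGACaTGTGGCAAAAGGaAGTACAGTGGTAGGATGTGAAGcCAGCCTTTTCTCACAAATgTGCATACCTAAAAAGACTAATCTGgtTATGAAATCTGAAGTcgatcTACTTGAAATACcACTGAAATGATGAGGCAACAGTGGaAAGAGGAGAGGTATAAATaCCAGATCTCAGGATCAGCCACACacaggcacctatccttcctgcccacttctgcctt
They were 94% identical over 216 aligned bases, with 10 shared runs that cover 193 of the 250 bases. The aligned stretch lies 34 bases farther from the annotated start in Serpinb3a. Serpinb3d shared no long stretch with either, the longest local alignment with Serpinb3c being 28 bases. Probes of these copies may bind more than one of them, and a test of the difference between Serpinb3c and Serpinb3a was not made.

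Serpinb13, or headpin, an inhibitor of cathepsins made by stratified epithelia, went the other way. It read 7.88 and 8.03 on the noggin arrays and 8.64 and 8.36 on the BMP4 arrays. Both BMP4 pools lay above both noggin pools. The difference was -0.55 (95% interval -0.93 to -0.16, limma adjusted p = 0.808), or 1.46-fold higher in BMP4, and it lay between -0.68 and -0.41 when any 1 array was left out. A mean lower in noggin by at least 0.5 was seen in 1.21% of named genes, and Serpinb13 was the only member among them. A mean higher by at least 0.5 was seen in 1.68% of named genes and in 4 members, Serpinb3c, Stfa3, Stfa2 and Csta3.

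The chromosome 1 cluster also holds serpins directed at trypsin-like and other serine proteases. Serpinb2, or plasminogen activator inhibitor 2, read 10.70 and 11.02 in noggin and 10.92 and 10.82 in BMP4, a difference of -0.0041 (95% interval -0.40 to 0.39). Serpinb7, the mouse counterpart of the palmoplantar keratosis gene, read 10.62 and 10.81 in noggin and 10.74 and 10.74 in BMP4, a difference of -0.024 (95% interval -0.32 to 0.27). The groups overlapped for both, and the intervals leave room for changes of up to 0.40 and 0.32 on the log2 scale. Serpinb8, whose known target is the convertase furin, read 10.92 and 11.14 in noggin and 10.68 and 10.94 in BMP4, a difference of 0.22 (95% interval -0.19 to 0.62) that was 0.087 without BMP4 replicate 1. Serpinb11 read 9.63 and 9.62 in noggin and 9.88 and 9.75 in BMP4. Its groups did not overlap, and the difference was -0.20 (95% interval -0.46 to 0.066, limma adjusted p = 0.927).

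Serpinb12, an inhibitor of trypsin-like proteases found in many epithelia, read 11.36 and 11.66 in noggin and 11.42 and 10.85 in BMP4. The groups overlapped, and BMP4 replicate 2 alone was low. The difference was 0.38 (95% interval -0.28 to 1.04), which was 0.092 with BMP4 replicate 2 left out and 0.66 with BMP4 replicate 1 left out. Serpinb10 read 9.25 and 10.22 in noggin and 9.50 and 9.53 in BMP4, so that noggin replicate 2 stood above the 3 other arrays and the difference of 0.22 (95% interval -0.75 to 1.19) rested on it. Serpinb5, or maspin, which does not inhibit proteases, read 11.79 and 11.98 in noggin and 11.84 and 11.72 in BMP4, a difference of 0.11 (95% interval -0.21 to 0.43) that was 0.016 without noggin replicate 2.

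A feature that was not used to choose the genes is an AP-1-like heptamer, TGANTCA, where N is any base. It reads the same on both strands and was searched over the 250 bases upstream. These letters are looser than the AP-1 consensus, which has G or C at the centre. AP-1 is a transcription factor family of stratified epithelia. The heptamer lay in 7 of the 27 members with a window and in 7.82% of all 27025 genes with one (6.75% of windows). All 7 were serpins of the chromosome 1 cluster, where 10 genes have a window. It lay in 0 of 12 chromosome 13 serpins and 0 of 5 stefins. The sites are shown with up to 14 bases on each side, with the heptamer in capitals.
Serpinb5, chr1:106861021-106861055: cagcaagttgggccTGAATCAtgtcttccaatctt
Serpinb12, chr1:106934390-106934424: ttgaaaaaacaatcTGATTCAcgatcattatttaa
Serpinb11, chr1:107362119-107362153: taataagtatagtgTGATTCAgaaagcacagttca
Serpinb11, chr1:107362224-107362258: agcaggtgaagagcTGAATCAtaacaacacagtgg
Serpinb7, chr1:107422630-107422664: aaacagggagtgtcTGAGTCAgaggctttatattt
Serpinb2, chr1:107511315-107511349: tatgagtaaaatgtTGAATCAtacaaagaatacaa
Serpinb10, chr1:107528935-107528969: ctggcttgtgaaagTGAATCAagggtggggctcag
Serpinb8, chr1:107589969-107590003: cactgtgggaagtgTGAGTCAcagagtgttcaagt
All lie on the plus strand of GRCm38.p6. Only the sites of Serpinb7 and Serpinb8 have the consensus G at the centre, and the other sites have A or T there. How many genes carry a G or C centre was not counted. The heptamer starts 23 bases before the annotated start in Serpinb8, 45 in Serpinb7 and Serpinb12, 54 in Serpinb10 and 140 in Serpinb5. In Serpinb11 the sites start 181 and 76 bases before it. Serpinb2 has a pair of annotated starts, and its site starts 94 bases before one and 181 before the other. The differences between lines over these 7 genes ran from -0.20 to 0.38. The GC-rich element GGCGCC, a motif bound by the SMAD proteins that act downstream of BMPs, lay in 0 of the 27 members and in 10.8% of genes with a window. Each match is a match of letters only.

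The chromosome 13 cluster holds the serpins that guard cells against leukocyte granule proteases. Serpinb1a, an inhibitor of neutrophil elastase, read 7.28 and 7.89 on the noggin arrays and 7.08 and 7.11 on the BMP4 arrays. The lines did not overlap, but noggin replicate 2 stood apart. The difference was 0.49 (95% interval -0.13 to 1.12, limma adjusted p = 0.913), and leaving out noggin replicate 2 gave 0.19, leaving out noggin replicate 1 gave 0.79. Serpinb6a, an inhibitor of cathepsin G and trypsin-like proteases, read 8.03 and 8.13 against 8.07 and 8.01, and Serpinb6c read 8.37 and 8.58 against 8.73 and 8.44. Both overlapped between the lines, with differences of 0.038 and -0.10.

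The rest of this cluster gave little or no signal. Serpinb9, the inhibitor of granzyme B, with Serpinb9b, Serpinb9c, Serpinb9d, Serpinb9e, Serpinb1c, Serpinb6d and Serpinb6e, lay below the lower quartile on all 4 arrays, which makes 8 of the 13 genes. Serpinb1b was below it on 3 arrays, with 4.22 and 4.31 in noggin and 4.85 and 4.26 in BMP4. Its difference of -0.29 came from BMP4 replicate 1 and was 0.0012 without that array. Serpinb1c read 3.66 and 3.63 in noggin and 3.63 and 3.85 in BMP4, and Serpinb6e read 3.69 and 3.64 against 3.62 and 3.89, with overlapping groups in both. Serpinb6b read 5.17 to 5.20 in noggin and 5.15 to 5.28 in BMP4. Differences among the 8 dim genes ran from -0.095 to 0.14, and Serpinb9d and Serpinb9e, whose groups did not overlap, are among them. Detection is unknown at these levels.

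**Figure D3:**
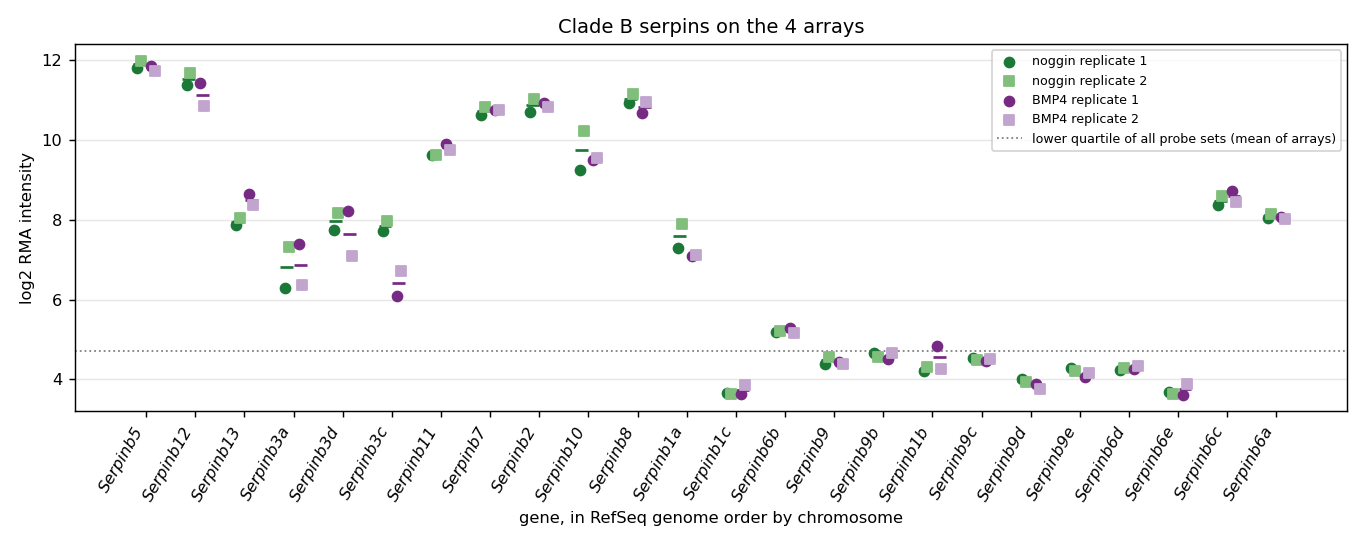
Log2 RMA intensity (y axis) of the 24 clade B serpins (x axis, chromosome 1 genes first, then chromosome 13) on each array, with circles for replicate 1, squares for replicate 2, bars for group means of 2 arrays and a dotted line for the lower quartile of all probe sets averaged over the arrays. Heights of different genes are not comparable; the lines are apart for Serpinb3c and Serpinb13, the 2 noggin or the 2 BMP4 arrays are spread wide for Serpinb3a, Serpinb3d and Serpinb10, and most chromosome 13 genes lie at or below the dotted line.

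**Figure D4:**
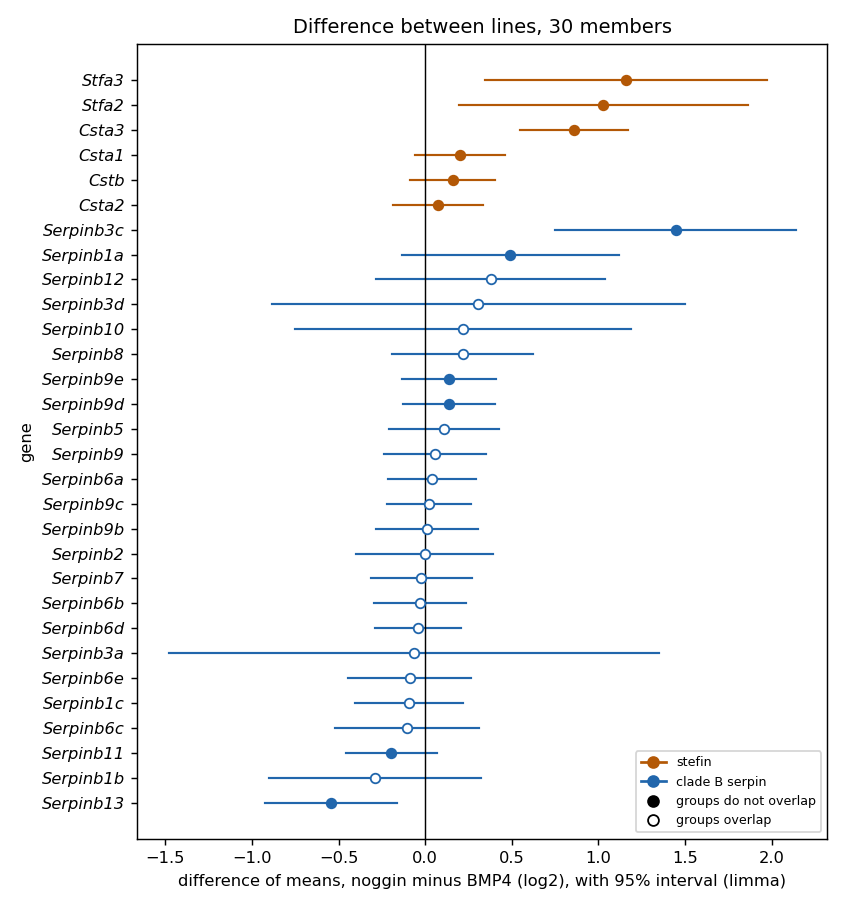
Difference of group means, noggin minus BMP4 on the log2 scale (x axis), with its 95% interval from limma, for the 30 members (y axis); filled points mark genes whose groups do not overlap. All 6 stefins lie above 0 and the serpins lie on both sides; the intervals of Stfa3, Stfa2, Csta3, Serpinb3c and Serpinb13 exclude 0 before adjustment for the number of probe sets.

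Cysteine and serine proteases, the classes that these inhibitors act on, were read from lists of the same arrays. Not every listed protease is a known target of a member. Of 11 cysteine proteases, 8 averaged higher and 3 lower in the noggin line. The groups were apart in 4 with noggin higher and in 0 with noggin lower, where the shares of named genes are 15.7% and 17.9%. The list's median difference was 0.13, or 0.018 without BMP4 replicate 1. Lgmn, the asparaginyl protease legumain, is not one of the papain-like proteases. It read 7.74 and 8.15 in noggin and 7.33 and 7.14 in BMP4, a difference of 0.71 (limma adjusted p = 0.808). Ctsz, or cathepsin Z, read 7.41 and 7.55 against 6.66 and 7.23, a difference of 0.54 that was 0.25 without BMP4 replicate 1 (limma adjusted p = 0.893). Ctss, or cathepsin S, had the largest difference of the list. It read 8.90 and 9.40 against 7.36 and 8.85, a difference of 1.05 that was 0.30 without BMP4 replicate 1 (limma adjusted p = 0.94). Ctsl, or cathepsin L, a keratinocyte protease that Serpinb13 and stefins inhibit, read 10.43 and 10.27 against 10.14 and 10.39, with overlapping groups. None of the 11 passed. Most Langerhans cell and macrophage markers, given above, averaged higher in noggin on the same arrays, and their part in the cathepsin values was not tested.

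Among 15 serine proteases, 11 averaged higher and 4 lower in the noggin line (median difference 0.056), and none passed the threshold. Leaving out noggin replicate 1 gave a median of 0.0020, and leaving out BMP4 replicate 1 gave -0.028, which turned its sign. Tmprss11d, an airway-type trypsin-like protease, had a difference of -0.24 (limma adjusted p = 0.926), or -0.13 without BMP4 replicate 1, and Cma1, the mast cell chymase, was 0.17 higher (limma adjusted p = 0.932). The groups of Furin, St14 and Prss8, proteases of keratinocytes, overlapped. The granule proteases Ctsg, Gzmb and Gzmc lay below the lower quartile on all 4 arrays, as did Plg.

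Secreted inhibitors related to these families were read in the same way. Of 10 measured secreted cystatins, 9 averaged higher in the noggin line (median difference 0.062). Cst9, Cst12, Cst13 and Kng1 lay below the lower quartile on all 4 arrays, where a direction has little meaning. Cst6, or cystatin E/M, which controls cathepsins in the cornifying layers, read 9.85 and 9.88 in noggin and 9.64 and 9.66 in BMP4, a difference of 0.22 (limma adjusted p = 0.888). Cst10 was 0.17 higher (limma adjusted p = 0.939), or 0.093 without noggin replicate 1, and was below the lower quartile on BMP4 replicate 1. Of 11 measured extracellular serpins, 5 averaged higher and 6 lower in the noggin line (median difference -0.069, or -0.015 without noggin replicate 2). Serpina9 read 8.46 and 8.53 in noggin and 9.13 and 8.72 in BMP4, a difference of -0.43 (limma adjusted p = 0.883), or -0.23 without BMP4 replicate 1. Serpinh1, the collagen chaperone HSP47, had a difference of -0.20 (limma adjusted p = 0.932), or -0.12 without noggin replicate 2. The largest difference of this list went the other way. Serpini1 read 8.64 and 8.87 in noggin and 6.62 and 8.54 in BMP4, a difference of 1.18 (limma adjusted p = 0.939), or 0.22 without BMP4 replicate 1. None in either list passed.

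For the series as a whole, array medians lay between 6.04 and 6.06, and the arrays correlated over named genes, which are not independent replicates, with r between 0.985 and 0.993. The arrays did not group by line in this measure. The highest r, 0.9932, was that of noggin replicate 1 with BMP4 replicate 2. It was 0.9925 for the noggin pair and 0.9888 for the BMP4 pair. BMP4 replicate 1 had 43 genes more than 1 log2 unit above and 44 more than 1 below all other arrays, against 1 to 13 on the other arrays. Of the 30 members, 12 were lowest on BMP4 replicate 1 and 13 highest on noggin replicate 2. Keratinocyte markers were all above the lower quartile, with Krt14 at 12.25 to 12.42 and the palm and sole keratin Krt9 at 13.28 to 13.44. Basal markers averaged lower in noggin in 5 of 7 genes (median difference -0.10), and suprabasal markers averaged higher in 5 of 6 (median difference 0.042). The T cell list was higher in 7 of 7 genes (median 0.17), the mast cell list in 5 of 7 (median 0.099), the skeletal muscle list in 8 of 8 (median 0.73) and the fibroblast list in 2 of 6 (median -0.021). These medians moved with single arrays, and that of the fibroblast list turned to 0.16 without BMP4 replicate 2. Without BMP4 replicate 1 they were 0.078 for T cell, 0.0011 for mast cell, 0.16 for muscle and -0.20 for fibroblast genes, and the muscle median was 0.21 if noggin replicate 1 was left out instead. Nog differed by -0.13 and Bmp4 by -0.31, and no source used here says whether their probe sets lie in the transgenes, so they do not check the labels.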

How the data were processed

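The deposited log2 intensities per probe set were made by the authors with Affymetrix Expression Console and RMA, per the submitters' processing notes, which give no version. RMA corrects background, quantile-normalizes arrays and summarizes probes, so overall differences in signal are removed and changes of dim probe sets are compressed. Scanner files were not used here, so other background corrections and scan batches could not be tried. Genes were named from the platform annotation table: 21789 of 35556 probe sets had 1 symbol, 1621 several and 12146 none. All 30 members matched the GRCm38.p6 gene table by identifier.

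The difference was fitted over all 35556 probe sets with the R package limma (version 3.58.1, R 4.3.3). The two-sided moderated test from eBayes had the line as its sole term and 2 residual and 2.08 prior degrees of freedom, with Benjamini-Hochberg adjustment over all of them and a threshold of 0.05. The number of arrays limits the precision. Errors are SDs of 2 arrays. The code was tested on simulated data. Lists were described by counts and medians and given no test. The members and lists were chosen with earlier results of these data known. Full values are given for the 6 serpins and 4 stefins of highest mean, the 6 members of smallest p in each direction, members with a difference of at least 0.5, and 2 genes of smallest p per protease or inhibitor list, which made 18 members. The other members and list genes given values beside these were picked after their values were seen. Replicate numbers did not pair the arrays: no label ties them, and deviations of same-numbered arrays correlated at -0.119 over all probe sets. Alternatives were a replicate block, a trend and robust prior, leaving out dim probe sets, cyclic loess, median centring, the mean of a gene's probe sets and leaving out each array. Promoter alignments used Biopython 1.88 in Python 3.11.15, and figures matplotlib 3.10.9.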

Additional observations from a re-analysis of the deposited data

How the results depend on the processing

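No member passed an adjusted p of 0.05 in limma under any alternative run, the smallest being 0.272. At an unadjusted p below 0.05 there were 5 members and 1994 probe sets. With the replicate number as a block, limma called 0 probe sets and 0 members. A crossed pairing, noggin 1 with BMP4 2, was added after seeing the data and also called 0 and 0. The stefins' groups were apart, with noggin higher, for all 6 under every alternative except the one without dim probe sets. That one leaves 4 stefins, all 4 apart. Most alternatives could not change this outcome. Groups already apart stay apart without 1 array, and the block, prior and mean of probe sets leave each member's array values unchanged. Only cyclic loess and median centring altered those values. The stefins' median difference lay between 0.39 (without BMP4 replicate 1) and 0.61 when 1 array was left out. The serpins' median was 0.074 without dim probe sets and ranged from -0.040 to 0.091 on leaving out 1 array, so it has no settled sign. Members whose groups do not overlap numbered 21 without any 1 array, since 2 arrays against 1 overlap less easily. The share over all named genes was not counted in that setting, so the 21 is no result about the members. Of the 18 members described in full, 12 kept their direction in every alternative that could be run. For members with groups apart, leaving out 1 array could not turn the direction. The block, prior and mean of probe sets do not alter a member's difference. The other 6 turned only on leaving out an array, with ranges of -0.12 to 0.069 for Serpinb7, -0.16 to 0.16 for Serpinb2, -0.58 to 0.0012 for Serpinb1b, -0.25 to 0.042 for Serpinb6c, -0.20 to 0.013 for Serpinb1c and -0.23 to 0.049 for Serpinb6e. Signal over background is unknown, which limits the 9 members below the lower quartile on all arrays.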

Other observations

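The 5 probe sets that carry several symbols belong in no comparison of single genes. The probe set shared by Cstdc6, Cstdc5 and Stfa1, all stefin A copies of chromosome 16, read 12.24 and 12.19 on the noggin arrays and 10.92 and 11.74 on the BMP4 arrays. Its difference was 0.89 (95% interval 0.069 to 1.71, limma adjusted p = 0.874), and 0.48 without BMP4 replicate 1. The probe set shared by Stfa2l1 and Stfa2 read 6.99 and 6.40 in noggin and 5.77 and 5.91 in BMP4, a difference of 0.86 (95% interval 0.23 to 1.49, limma adjusted p = 0.835). In both, the noggin arrays lay above the BMP4 arrays, as in the single-symbol stefins, with which they may share probes. The 3 probe sets shared by Serpinb9g, Serpinb9d, Serpinb9e and Serpinb9f lay between 4.03 and 4.499 on all arrays, below the lower quartile, and their groups overlapped.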
